A study of Mus musculus with 4 samples.

Results

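Ly6c2 classical monocytes are described here, 289 of the 9256 filtered cell barcodes of 4 single-cell libraries from tumour-bearing mouse lungs. The members were chosen by their own UMI counts, where a UMI (unique molecular identifier) stands for 1 captured RNA molecule. A member had at least 1 UMI of Ly6c2, at least 4 of Ly6c2, Ccr2 and F13a1 together, and at least 10 of Lyz2. It had at most 2 UMIs of the C1q genes, at most 2 of Plet1, Ear1 and Slc7a2, and at most 2 of Treml4, Ace and Adgre4. It had none of Cd3e, Cd3d, Cd3g, Cd79a or Siglech and at most 1 of Cd209a. The filter kept barcodes with 200 or more genes and up to 10% of UMIs from mitochondrial genes, out of 10382 in the matrices.

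4T1, a breast cancer line of Balb/c origin that forms lung metastases, was injected into a vein of Balb/c mice. Lungs were collected on day 14, digested with collagenase, and leukocytes bearing CD45 were held on magnetic beads. In 2 libraries, labelled PD-L1 KO, the injected 4T1 cells lacked PD-L1. In the other 2, labelled WT, they were wild-type 4T1 cells. The knockout was in the tumour cells, the labels give no change to the host, and Cd274 (the PD-L1 gene) in monocytes therefore does not check the labels. The names of the deposited files carry the opposite condition for both groups, so every direction below rests on the sample labels. Whether both libraries of a group came from separate mice is not stated, so every p-value reflects the spread among these 4 libraries, which could be technical.

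Classical monocytes leave the bone marrow through the chemokine receptor CCR2, circulate with high surface Ly6C and enter inflamed or tumour-bearing tissue. There they can take up macrophage or antigen-presenting programmes, or convert in the blood to nonclassical monocytes. They respond strongly to type I interferon, whose signal reaches target genes through the factor ISGF3 bound to the interferon-stimulated response element.

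Numbers of members differed more than their depth. There were 86 and 74 members in PD-L1 KO libraries 1 and 2, against 76 and 53 in WT libraries 1 and 2. Their summed UMIs were 675144 and 508866 in the PD-L1 KO libraries, against 571883 and 383331 in the WT libraries. Medians per member were 7677 and 6487 UMIs in the PD-L1 KO libraries, against 6940 and 6983 in the WT libraries. No member barcode was shared by 2 libraries, any pair of libraries shared at most 3 barcodes, and 0 members were among the barcodes marked as likely doublets.

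Isg15, Rsad2 and Bst2 were 3 of the 4 type I interferon genes with the smallest p in the member sums. Their promoters are shown because each window holds the core of the interferon-stimulated response element; the window of Ifitm1, the other gene, held 0 matches. Each window runs from 250 bases before to 50 after the gene's start (RefSeq, GRCm38.p6), 5′ to 3′ on the gene's strand. Capitals mark matches to GAAANNGAAA on either strand, overlapping matches joined. The windows are chr4:156200769-156201068 for Isg15, chr12:26456403-26456702 for Rsad2 and chr8:71537423-71537722 for Bst2, all on the minus strand, with 3, 1 and 2 matches.
Isg15: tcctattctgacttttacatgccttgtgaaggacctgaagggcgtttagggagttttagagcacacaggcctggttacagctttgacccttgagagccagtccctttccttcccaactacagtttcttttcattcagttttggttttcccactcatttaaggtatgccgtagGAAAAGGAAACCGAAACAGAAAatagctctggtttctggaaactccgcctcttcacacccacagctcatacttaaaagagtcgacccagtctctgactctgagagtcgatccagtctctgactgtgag
Rsad2: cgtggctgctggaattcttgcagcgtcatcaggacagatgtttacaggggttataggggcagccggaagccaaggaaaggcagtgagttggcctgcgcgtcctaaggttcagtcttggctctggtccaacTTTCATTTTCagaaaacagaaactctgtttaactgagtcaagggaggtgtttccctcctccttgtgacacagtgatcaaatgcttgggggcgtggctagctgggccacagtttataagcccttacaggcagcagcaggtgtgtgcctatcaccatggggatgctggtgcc
Bst2: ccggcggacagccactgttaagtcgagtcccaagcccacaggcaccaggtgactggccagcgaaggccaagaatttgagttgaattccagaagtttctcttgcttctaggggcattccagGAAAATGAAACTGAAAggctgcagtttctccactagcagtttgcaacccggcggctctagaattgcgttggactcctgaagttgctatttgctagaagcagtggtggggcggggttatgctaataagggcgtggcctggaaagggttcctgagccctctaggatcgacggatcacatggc
The same letters were found in 1131 of all 32851 windows of the table (3.44%). Counted by gene, with a match in any of its windows, they were found in 1079 of 27025 (3.99%). Of the tested genes of the type I interferon list, 52 were in the table and 25 of them (48.1%) held a match. Among the 13 with an unadjusted p under 0.05 there were 7 (53.8%). A match describes the letters and does not show a bound site.

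The members carried the monocyte markers in every library. Ly6c2, the surface protein of the subset, stood at 794 and 715 CPM (UMIs scaled to the total of the members in that library) in the PD-L1 KO libraries, against 778 and 921 in the WT libraries. Ccr2 stood at 1271 and 1297 CPM in the PD-L1 KO libraries, against 1282 and 1010 in the WT libraries. These genes were used by the rule and are given as description only.

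Ms4a6c and Thbs1 were not used by the rule. Ms4a6c, a tetraspan membrane protein of monocytes, stood at 1514 and 1674 CPM in the PD-L1 KO libraries, against 1677 and 1550 in the WT libraries. Over all filtered barcodes it stood at 334 and 350 CPM in the PD-L1 KO libraries, against 274 and 181 in the WT libraries. In C1q macrophages it stood at 710 and 694 CPM in the PD-L1 KO libraries, against 585 and 446 in the WT libraries. Cells with Treml4, Ace or Adgre4 and Lyz2 had 614 and 777 CPM in PD-L1 KO libraries, against 716 and 471 in WT libraries. Thbs1, the matrix glycoprotein thrombospondin, was uneven among libraries, at 490 and 106 CPM in the PD-L1 KO libraries, against 261 and 441 in the WT libraries. In the members the groups overlapped for both genes. Summed over all members, the markers did not go against the label. Thbs1, F13a1 and Ly6c2 were lower in the minority of MHC class II-high members described below.

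**Figure D1:**
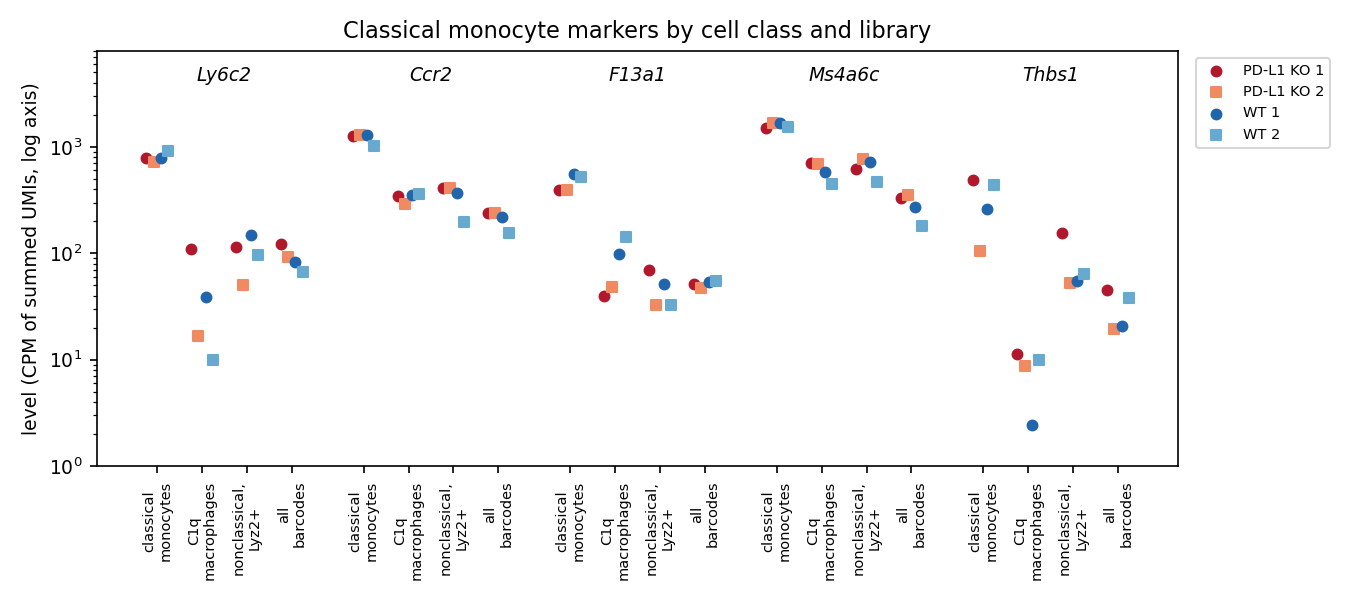
Levels of 5 monocyte markers in each library (CPM of summed UMIs, log axis) in classical monocytes, C1q macrophages, cells with Treml4, Ace or Adgre4 that also had Lyz2 (labelled nonclassical) and all filtered barcodes. Ms4a6c stood between 1514 and 1677 CPM in the members of all 4 libraries, and Thbs1 between 106 and 490.

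The limits of the rule cut through few cells. Exactly 4 UMIs of Ly6c2, Ccr2 and F13a1 were held by 1 and 3 members in the PD-L1 KO libraries, against 0 and 1 in the WT libraries. Barcodes with 3 UMIs that met the rest of the rule numbered 3 and 1 in the PD-L1 KO libraries, against 2 and 0 in the WT libraries. In PD-L1 KO library 1, Ms4a6c stood at 1995 CPM in the member just inside and 1269 CPM in the 3 cells just outside. In PD-L1 KO library 2 the order was the other way, with 1214 CPM in the 3 members just inside and 1928 CPM in the cell just outside. The C1q limit mattered more: 22 and 10 barcodes of the PD-L1 KO libraries, against 4 and 3 of the WT libraries, met the rest of the rule but held over 2 C1q UMIs.

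Transcripts of other lineages were detected in the members. The summed level of 15 neutrophil markers, all detected, was 7095 and 18679 CPM in the PD-L1 KO libraries, against 8306 and 4808 in the WT libraries. In PD-L1 KO library 2 this was close to the 18824 CPM over all its filtered barcodes. In each library 1 cell held a large part of the UMIs of S100a8, a calprotectin chain of neutrophils and monocytes. This was 825 of 1620 and 2246 of 3893 UMIs in the PD-L1 KO libraries. In the WT libraries it was 798 of 1786 and 451 of 609. More than 5 UMIs of S100a8 and S100a9 were held by 10 and 10 members in the PD-L1 KO libraries, against 5 and 6 in the WT libraries.
The 10 C1q macrophage markers, all detected, summed to 3356 and 4530 CPM in the PD-L1 KO libraries, against 3090 and 2695 in the WT libraries. Over all filtered barcodes they summed to 5081 and 4959 CPM in the PD-L1 KO libraries, against 4360 and 3166 in the WT libraries. Apoe made up most of the sum in members, at 3162 and 4288 CPM in the PD-L1 KO libraries, against 2712 and 2439 in the WT libraries. The sum also includes the C1q genes, which the rule limits. Of the 6 tested markers 2 lay above in both PD-L1 KO libraries (33.3%, against 20.0% of all genes). Another 2 lay below (33.3%, against 19.4%). Nonclassical monocyte markers (8 of 8 detected) summed to 398 and 387 CPM in the PD-L1 KO libraries, against 434 and 543 in the WT libraries. The nonclassical sum includes Treml4, Ace and Adgre4, which the rule limits. These 2 sums did not overlap between the groups, and their part in the results below was not tested.

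Classical monocytes made up 3.79% and 3.59% of filtered barcodes in the PD-L1 KO libraries, against 3.03% and 2.19% in the WT libraries. The mean was 3.69% ± 0.141 in the PD-L1 KO libraries and 2.61% ± 0.590 in the WT libraries (SD, n = 2 each), and the groups did not overlap. An exact two-sided permutation test gave p = 0.333, the smallest that 2 libraries against 2 allow. With every barcode thinned to 2000 UMIs, which left out 325 and 392 barcodes of the PD-L1 KO libraries, against 500 and 453 of the WT libraries, the shares were 3.65% and 2.87% in the PD-L1 KO libraries, against 3.14% and 2.29% in the WT libraries, and overlapped (exact permutation p = 0.667).

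Across the member sums, 2 of 5651 tested genes passed, Rgs1 and Spp1, both at a higher level under the PD-L1 KO label (quasi-likelihood test of edgeR, adjusted p under 0.05 by Benjamini-Hochberg). That is 0.0354% of genes higher and 0% lower. At an unadjusted p under 0.05 there were 246 higher and 185 lower, and DESeq2 called 4 higher and 1 lower. Calls changed with the settings, from 0 genes without PD-L1 KO library 2 to 123 without WT library 1. Both PD-L1 KO libraries lay above both WT libraries for 1131 genes (20.0%) and below both for 1095 (19.4%).

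Rgs1 (ENSMUSG00000026358; chromosome 1, 144242296 to 144249242, minus strand, mm10) limits signalling by chemokine receptors as a GTPase activator. It had 107 and 76 UMIs in the PD-L1 KO libraries, against 23 and 14 in the WT libraries. The level was 154 CPM ± 6.46 in the PD-L1 KO libraries and 38.4 CPM ± 2.61 in the WT libraries (SD, n = 2 each), and the groups did not overlap. The log2 difference was 1.98 (SE 0.23, edgeR adjusted p = 0.0177).
Few cells carried it: 15 of 86 and 14 of 74 members in the PD-L1 KO libraries, against 6 of 76 and 1 of 53 in the WT libraries. At most 2.20% of endothelial cells of any library, which should lack it, held a UMI, at medians of 7556 and 7680 UMIs per endothelial cell in the PD-L1 KO libraries, against 6735 and 5905 in the WT libraries. The call was lost under the stricter membership rule (log2 difference 1.58), after thinning to 3000 UMIs (1.89) and without PD-L1 KO library 1 (1.96) or 2 (2.01). It was also lost over the MHC class II-low members alone (2.93) and without members rich in Cxcl9 (2.25), both settings chosen after the data had been seen.

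Spp1 (ENSMUSG00000029304; chromosome 5, 104435118 to 104441050, plus strand) encodes osteopontin, a secreted protein of macrophages in tumours. It had 102 and 135 UMIs in the PD-L1 KO libraries, against 9 and 0 in the WT libraries. The log2 difference was 4.43 (SE 0.55, edgeR adjusted p = 0.0177). In PD-L1 KO library 2 a single cell held 110 of the 135 UMIs, and 25 remained without it.
UMIs were found in 11 of 86 and 11 of 74 members in the PD-L1 KO libraries, against 5 of 76 and 0 of 53 in the WT libraries, where 0 allows a share of up to 5.66% of cells with a UMI and sets no limit on cells expressing the gene. Endothelial cells held a UMI in 3.33% and 5.49% of cells of the PD-L1 KO libraries, against 3.60% and 2.48% of the WT libraries, at the depths given for Rgs1. The shares of members were 12.8% and 14.9% in the PD-L1 KO libraries, against 6.58% and 0% in the WT libraries. The call was lost without PD-L1 KO library 2 (log2 difference 3.97), after thinning to 3000 UMIs (4.20), with at most 5% mitochondrial UMIs (4.40), over MHC class II-low members (5.81) and by DESeq2 (4.69). Without WT library 1 the fitted value was 9.76, which depends on the prior count because the remaining WT library had 0 UMIs.

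Other genes that ranked high lay apart between the groups without passing. Isg15, a ubiquitin-like interferon effector, had 420 and 378 UMIs in the PD-L1 KO libraries, against 216 and 140 in the WT libraries. Its log2 difference was 0.87 (SE 0.15, edgeR adjusted p = 0.0897). Lgmn and Ctsb, proteases of the lysosome, and Cstb, a cathepsin inhibitor, had log2 differences of 1.11, 0.65 and 1.13.
Lgmn stood at 243 and 314 CPM in the PD-L1 KO libraries, against 126 and 130 in the WT libraries. Ctsb stood at 1028 and 1016 CPM in the PD-L1 KO libraries, against 656 and 644 in the WT libraries. Within each group these libraries nearly coincided for Ctsb. G0s2, a lipolysis inhibitor (1.45), Aif1, an actin-binding protein of macrophages (0.80), and Cd300c2, an activating surface receptor (0.88), did not pass either (edgeR adjusted p = 0.0897 to 0.103).

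Of the genes of lower level in the libraries labelled PD-L1 KO, those named by rank of p are given here. Fosb, an AP-1 subunit induced by stimulation, stood at 212 and 197 CPM in the PD-L1 KO libraries, against 364 and 417 in the WT libraries (log2 difference -0.93, SE 0.16, edgeR adjusted p = 0.0897). Klf2, a transcription factor of quiescence, stood at 1207 and 1106 CPM in the PD-L1 KO libraries, against 1724 and 1711 in the WT libraries (-0.58). Vim, an intermediate filament (-0.48), Ahnak, a scaffold protein (-0.67), Tppp3, a tubulin-binding protein (-0.96), and Fam102b (-1.10) had non-overlapping groups too, and none passed.
Nrgn, Ctla2a, Pf4 and Gng11 had log2 differences between -4.79 for Pf4 and -4.11 for Nrgn, and none passed. The same cell of WT library 1 held 61 of 63 UMIs of Nrgn, 273 of 286 of Ctla2a, 110 of 112 of Pf4 and 92 of 99 of Gng11. WT library 2 held 13, 30, 12 and 12 UMIs of the 4 genes, and there too 1 cell held the largest count of each. Pf4 and Gng11 are abundant in platelets, and at least 3 UMIs of Pf4, Nrgn and Gng11 were held by 0 and 0 members in the PD-L1 KO libraries, against 2 and 4 in the WT libraries.

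**Figure D2:**
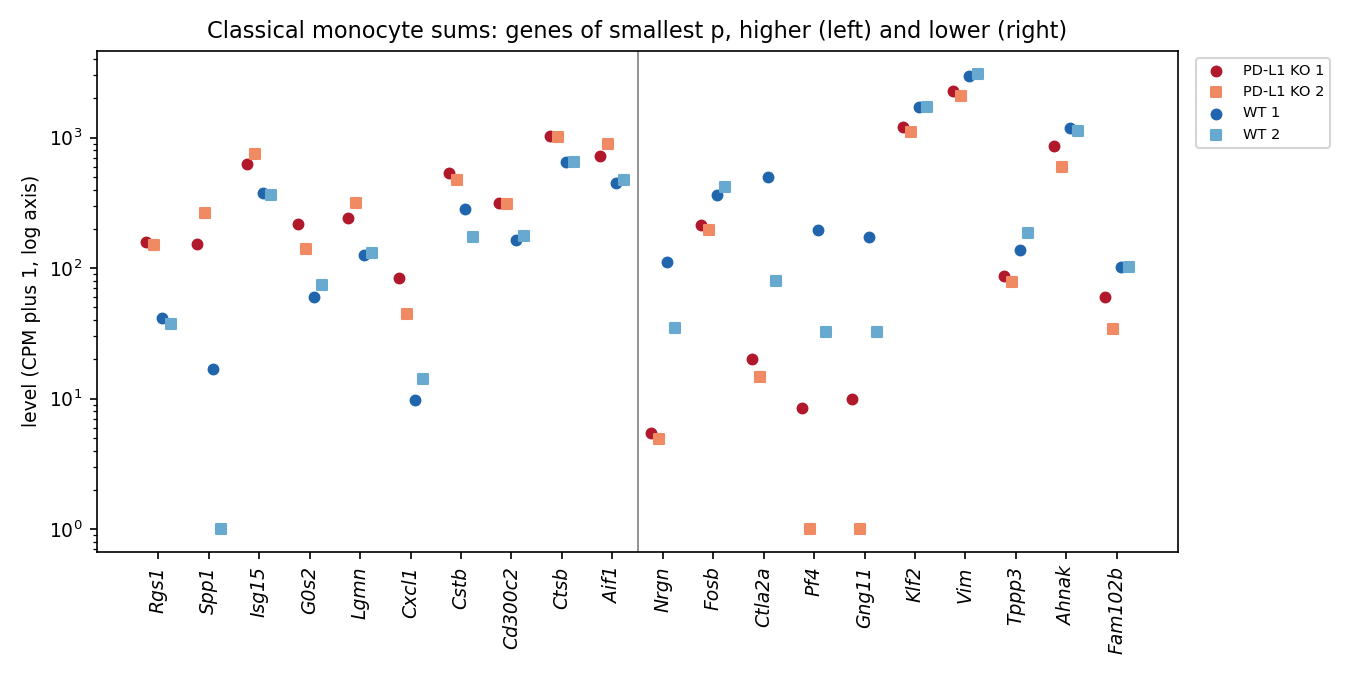
Level of 20 genes in the member sums of each library (CPM plus 1, log axis): the 10 of smallest p whose groups of libraries did not overlap in each direction. Symbols starting with Gm and a digit, Rpl, Rps or mt-, or ending in Rik, were passed over. Rgs1 and Spp1 passed the test; Nrgn, Ctla2a, Pf4 and Gng11 stood highest in WT library 1, where 1 cell held most of their UMIs.

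The gene lists here and below were chosen with earlier results of these data known, so their shares are description. Of the type I interferon list, 65 of 70 genes were tested. Of these, 26 lay above in both PD-L1 KO libraries (40.0%, against 20.0% of all genes) and 2 below (3.08%, against 19.4%). The median log2 difference was 0.23, against -0.01 over all genes, and 0 passed the test. Rsad2, the antiviral enzyme viperin, had 163 and 66 UMIs in the PD-L1 KO libraries, against 47 and 18 in the WT libraries (1.48, SE 0.32, edgeR adjusted p = 0.168). In PD-L1 KO library 1, 113 of the 163 UMIs lay in 1 cell.
Bst2, the tether of budding virus, stood at 274 and 238 CPM in the PD-L1 KO libraries, against 126 and 162 in the WT libraries (0.84). Ifitm1, which blocks virus entry, stood at 161 and 238 CPM in the PD-L1 KO libraries, against 96.2 and 31.3 in the WT libraries (1.54). In WT library 2, 10 of its 12 UMIs lay in 1 cell, and without WT library 1 the difference was 2.65. Neither passed the test, and neither group overlapped the other.
Per cell, at 3000 UMIs each, the list's median was 57 and 64 UMIs in the PD-L1 KO libraries, against 56.5 and 59.5 in the WT libraries. The groups overlapped, and the difference of their means was 2.5 UMIs, against an SD of 4.95 in the PD-L1 KO libraries. With at most 5% mitochondrial UMIs it turned round, to -5.25. The 90th percentiles were 108 and 101 UMIs in the PD-L1 KO libraries, against 85.5 and 109 in the WT libraries, and overlapped as well.

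None of the tested genes of interferon sensing or of the PD-1 list passed. Pdcd1, the gene of PD-1, had 0 UMIs in the members of all 4 libraries, where 0 leaves room for up to 3 per library, and so had Ifnb1, the gene of interferon beta. Cd274 had 26 and 10 UMIs in the PD-L1 KO libraries, against 8 and 4 in the WT libraries (log2 difference 1.24, SE 0.50, edgeR adjusted p = 0.599). Ptpn11, a phosphatase that PD-1 recruits, stood at 45.9 and 39.3 CPM in the PD-L1 KO libraries, against 68.2 and 60.0 in the WT libraries (-0.60).
Of 16 tested genes for interferons, their receptors and sensors, 5 lay above (31.2%, against 20.0% of all genes) and 2 below (12.5%, against 19.4%), with a median of 0.08. Socs3, an inhibitor of cytokine signalling, had the smallest p among them (0.63), and Tlr4, the receptor for bacterial lipopolysaccharide (0.67), Irf5 (0.22) and Tbk1 (-0.37), a kinase of innate sensing, were further from the threshold. The co-stimulatory ligands Cd86 (0.10) and Cd80 (-0.28) overlapped between the groups.

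No MHC gene passed the test. For MHC class II presentation 9 of 12 genes were tested, and all 9 had a log2 difference above 0, against 49.5% of all genes. Of these, 6 lay above in both PD-L1 KO libraries (66.7%, against 20.0%) and 0 below (0%, against 19.4%), with a median of 0.44. H2-Aa, an MHC class II chain, stood at 2358 and 1519 CPM in the PD-L1 KO libraries, against 1457 and 1289 in the WT libraries (0.49, SE 0.17, edgeR adjusted p = 0.550). H2-Eb1 (0.47), the peptide-loading chain H2-DMb1 (0.73) and the protease Ctss (0.39) did not pass either. The class II chains lay mostly in the same minority of members, described below, so these genes are not independent.
For MHC class I presentation 11 of 20 tested genes lay above in both PD-L1 KO libraries (55.0%, against 20.0% of all genes). Another 1 lay below (5%, against 19.4%), and the median was 0.23. H2-D1, a class I heavy chain, stood at 3020 and 2688 CPM in the PD-L1 KO libraries, against 2352 and 2421 in the WT libraries (0.25). Psme1, Psme2 and Psmb10, parts of the immunoproteasome, had differences of 0.32, 0.44 and 0.38.

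Class II transcripts were concentrated in a minority of the members. A member was counted as MHC class II-high with at least 30 UMIs of H2-Aa, H2-Ab1, H2-Eb1 and Cd74 per 3000 UMIs, a limit chosen after the values had been seen. High members made up 33.7% and 20.3% in the PD-L1 KO libraries (29 and 15 cells), against 21.1% and 17.0% in the WT libraries (16 and 9 cells). The groups overlapped. Between 15 and 30 lay 2 and 7 members of the PD-L1 KO libraries, against 2 and 5 of the WT libraries. In high members H2-Ab1 stood at 5931 and 6444 CPM in the PD-L1 KO libraries, against 6824 and 4877 in the WT libraries, and overlapped. H2-Eb1 overlapped as well. H2-Aa, at 5886 and 5841 CPM in the PD-L1 KO libraries against 5589 and 5361 in the WT libraries, did not.
The high members differed in other genes, given as description because the cells were split on measured values. F13a1, a transglutaminase of monocytes, stood at 80.2 and 26.2 CPM in high members of the PD-L1 KO libraries and 49.7 and 84.7 in those of the WT libraries. In low members it stood at 586 and 505 CPM in the PD-L1 KO libraries and 729 and 639 in the WT libraries. High members thus stood below low members in all 4 libraries. Thbs1 did too. In the PD-L1 KO libraries it stood at 84.0 and 17.5 CPM in high members, against 748 and 132 in low members. In the WT libraries it stood at 106 and 182 CPM in high members, against 311 and 512 in low members. Ly6c2 was also lower in high members of every library, whereas Ms4a6c was lower only in the libraries numbered 1.
The lectin Chil3 (0.155 times the mean of low members) and fibronectin, Fn1 (0.288), were lower in high members in the same way. Cxcl9, a ligand of CXCR3 on T cells, was higher, at 1627 and 1458 CPM in high members of the PD-L1 KO libraries and 3653 and 653 in those of the WT libraries. In low members it stood at 87.1 and 249 CPM in the PD-L1 KO libraries and at 0 in both WT libraries. Single cells held much of it: 53 of 54 UMIs in the high members of WT library 2 and 224 of 426 in those of PD-L1 KO library 1 lay in 1 cell each.
Rgs1 stood at 359 and 402 CPM in high members of the PD-L1 KO libraries and 128 and 169 in those of the WT libraries, so 94 of 107 and 46 of 76 UMIs in the PD-L1 KO libraries, and 18 of 23 and 14 of 14 in the WT libraries, lay in high members. Most UMIs of Rgs1 therefore lay in the minority of high members in each library. In WT library 2, 1 high member held all 32 UMIs of Ccr7, a receptor of migratory dendritic cells. Among those high members 1 cell also held all 17 UMIs of Fscn1, and 1 all 240 of Ccl5. Whether these were the same cell was not tested.

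**Figure D3:**
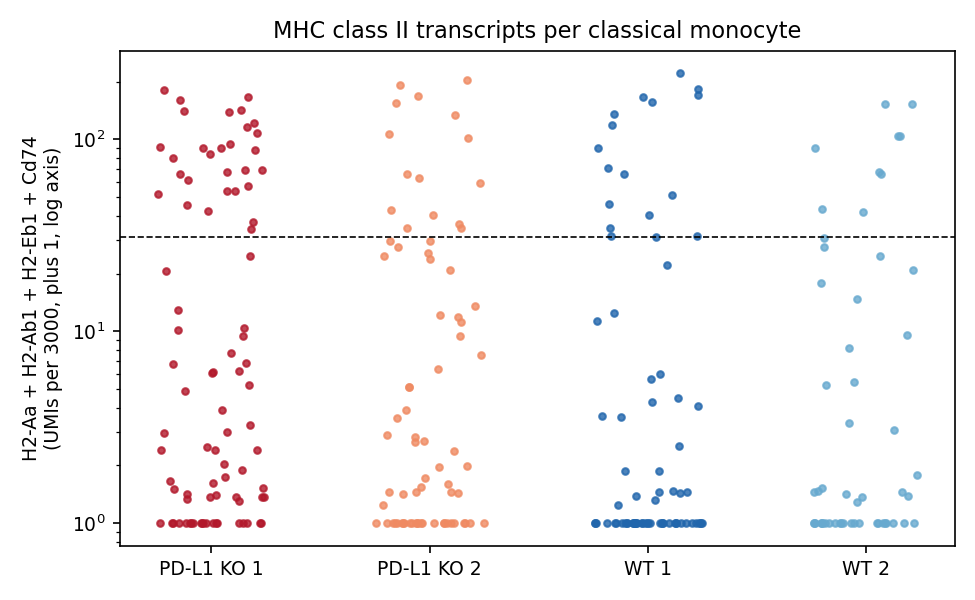
UMIs of H2-Aa, H2-Ab1, H2-Eb1 and Cd74 per 3000 UMIs (plus 1, log axis) in each member of each library, 1 point a cell, with the limit of 30 as a dashed line. High members made up 33.7% and 20.3% in the PD-L1 KO libraries, against 21.1% and 17.0% in the WT libraries.

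**Figure D4:**
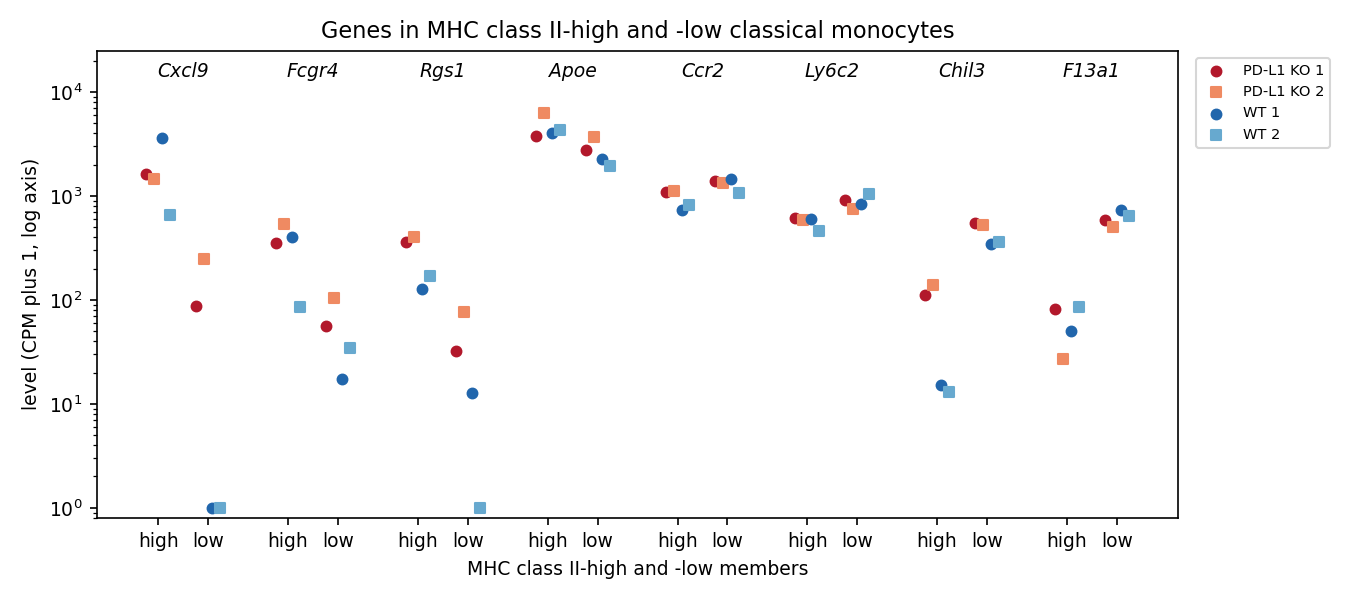
Levels of 8 genes (CPM plus 1, log axis) in MHC class II-high and -low members of each library. Cxcl9 and Rgs1 stood higher, and Chil3 and F13a1 lower, in high than in low members in all 4 libraries, with 53 of 54 Cxcl9 UMIs of the high members of WT library 2 in 1 cell.

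Of 19 tested chemokine genes 12 lay above in both PD-L1 KO libraries (63.2%, against 20.0% of all genes) and 2 below (10.5%, against 19.4%), with a median log2 difference of 0.69, and 0 passed the test. Cxcl2, a neutrophil attractant, had 2129 and 1220 UMIs in the PD-L1 KO libraries, against 684 and 664 in the WT libraries (0.92, SE 0.18, edgeR adjusted p = 0.103). Cxcl1, of the same family, had 56 and 22 UMIs in the PD-L1 KO libraries, against 5 and 5 in the WT libraries (2.59). Ccl3 (1.07) lay apart too, and Ccl8 had 13 and 37 UMIs in the PD-L1 KO libraries, against 0 and 1 in the WT libraries, with 12 and 35 of them in 1 cell each.
Ccl5, a T cell attractant, went the other way, at 301 and 344 CPM in the PD-L1 KO libraries, against 413 and 629 in the WT libraries (-0.69, adjusted p = 0.397 by edgeR). In WT library 2, 240 of its 241 UMIs lay in 1 cell, so the level of that library rests on that cell. In MHC class II-high members of PD-L1 KO library 1, 1 cell held 101 of 199 Ccl5 UMIs. In low members of WT library 1, 1 cell held 86 of 160. Cxcl9 and Cxcl10, both ligands of CXCR3, overlapped between the groups (0.16 and 0.36). Among 17 tested genes of the interferon-gamma list, 5 lay above (29.4%, against 20.0% of all genes) and 2 below (11.8%, against 19.4%), with Fcgr4, an Fc receptor, at 1.16 and Ciita, the activator of class II genes, at 0.67.

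Of the macrophage and lipid-handling list, 21 of 32 genes were tested, 10 lay above in both PD-L1 KO libraries (47.6%, against 20.0% of all genes) and 4 below (19.0%, against 19.4%), with a median of 0.56. Spp1 was the only member that passed. Ctsd, a lysosomal protease, stood at 552 and 369 CPM in the PD-L1 KO libraries, against 268 and 201 in the WT libraries (0.96, edgeR adjusted p = 0.164). Fabp5, a fatty-acid carrier, had 31 and 139 UMIs in the PD-L1 KO libraries, against 11 and 4 in the WT libraries, and 1 cell of PD-L1 KO library 2 held 75 of them (3.28).
The C1q macrophage marker sums given above, mostly Apoe, were higher in the same libraries, and their part was not tested.

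Of 30 tested monocyte identity genes 5 lay above (16.7%, against 20.0% of all genes) and 7 below (23.3%, against 19.4%), with a median of -0.03. These shares were close to those of all genes, and the 7 include F13a1, a gene of the rule. Fcgr1, a high-affinity Fc receptor (0.65), and Chil3 (0.59) were above, and Klf4, a transcription factor of the lineage (-0.73), below. F13a1, used by the rule, stood at 390 and 397 CPM in the PD-L1 KO libraries, against 561 and 519 in the WT libraries.
The nonclassical conversion list had 1 of 13 genes above (7.69%, against 20.0% of all genes) and 6 below (46.2%, against 19.4%). Its median was -0.15. Besides Klf2, Spn, the sialoglycoprotein CD43 (-0.72), and Pou2f2, a transcription factor (-0.33), were below, and Gngt2, a G protein subunit (0.34), above. Spn and Pou2f2 are also in the nonclassical marker sum given above.

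Of the heat shock and immediate early list, 2 of 21 lay above (9.52%, against 20.0% of all genes) and 7 below (33.3%, against 19.4%), with a median of -0.13: Klf6 (-0.49) and Nr4a2 (-0.71), both transcription factors, were below, and Ier3, an NF-kB target, above at 1.03. Ier3 stood at 434 and 409 CPM in the PD-L1 KO libraries, against 250 and 154 in the WT libraries (edgeR adjusted p = 0.109). Of 16 inflammatory and NF-kB feedback genes 3 lay above (18.8%, against 20.0% of all genes) and 0 below (0%, against 19.4%). Their median was 0.15.
Nfkbia, the NF-kB inhibitor, stood at 1203 and 1063 CPM in the PD-L1 KO libraries, against 692 and 845 in the WT libraries (0.56). Il1rn, the interleukin 1 receptor antagonist (1.30), and Casp1 (0.36) were above too. Leaving out 1 library moved Il1rn between 0.72 without WT library 2 and 2.83 without WT library 1. Il1b stood at 4808 and 2454 CPM in the PD-L1 KO libraries, against 2602 and 2656 in the WT libraries, and overlapped (0.46).
Of 13 suppressive and angiogenic genes 3 lay above (23.1%, against 20.0% of all genes) and 1 below (7.69%, against 19.4%), with a median of 0.22. Tgfbi, an extracellular matrix protein (0.50), Arg2, an arginase (0.67), and Il4ra, the interleukin 4 receptor (0.71), had non-overlapping groups, and Slc2a1, a glucose transporter (0.84), overlapped. Only 4 of 20 cell cycle genes could be tested: H2afz (-0.35) and Tubb5 (0.44) lay apart, and Pcna (0.54) and Hmgb2 (0.00) overlapped.

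**Figure D5:**
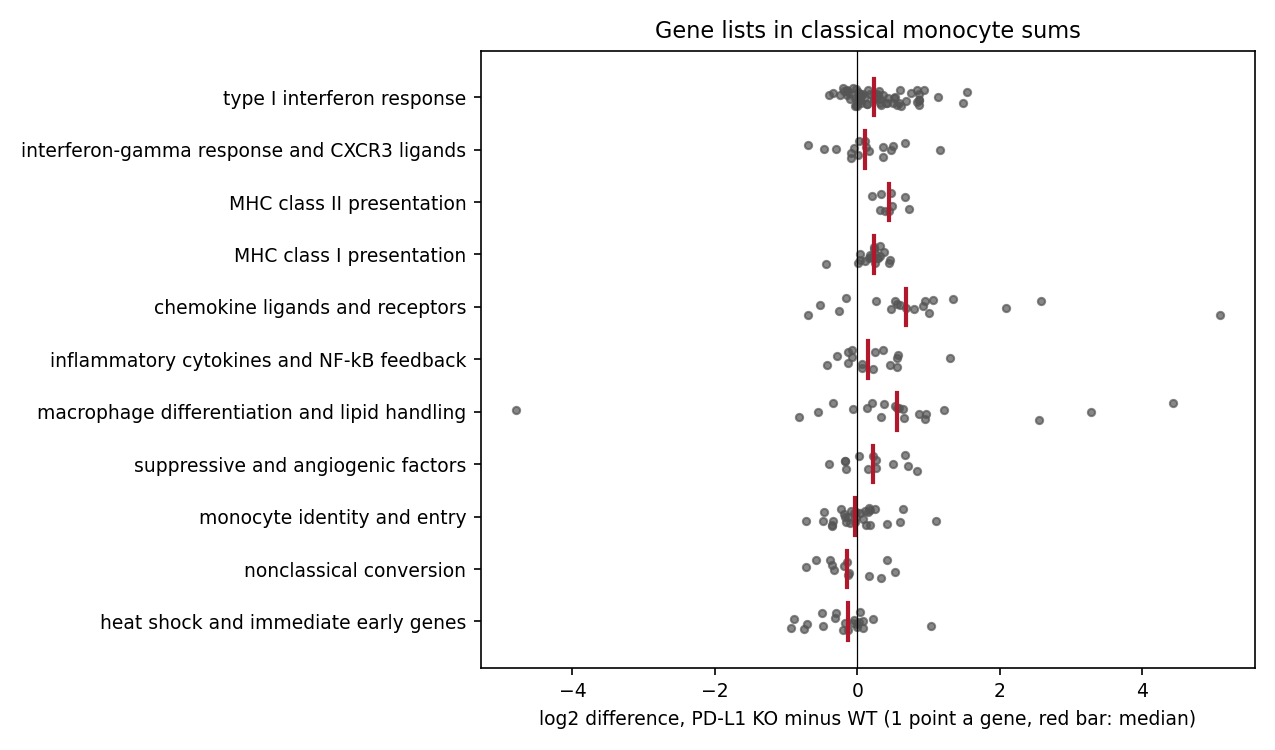
Log2 difference, libraries labelled PD-L1 KO minus WT, of each tested gene in 11 lists (1 point a gene, red bar the median). Medians ran from -0.15 for nonclassical conversion to 0.69 for chemokines, and Spp1 was the 1 listed gene that passed the test.

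The members' response was set against that of 2 neighbouring classes in 1 model with an interaction term and the library as a block. Cells with at least 4 UMIs of Treml4, Ace and Adgre4 (144 and 112 in the PD-L1 KO libraries, 172 and 272 in the WT libraries) were meant as nonclassical monocytes. The endothelial gene Cldn5 stood at 1817 and 1916 CPM there in the PD-L1 KO libraries, against 1800 and 2169 in the WT libraries, so that class held endothelial cells and is not a monocyte class.
Of 9641 genes 1 differed upward (0.0104%) and 1 downward (0.0104%): Spp1 by 7.94 (SE 0.73, edgeR adjusted p = 0.00145) and Ccl5 by -2.07 (SE 0.26, adjusted p = 0.0184). With at least 10 UMIs of Lyz2 also required, a rule added after the data had been seen, that class had 73 and 51 cells in the PD-L1 KO libraries, against 100 and 106 in the WT libraries. Cldn5 was still at 404 and 271 CPM in the PD-L1 KO libraries, against 601 and 757 in the WT libraries. Of 7631 genes 0 then differed upward (0%) and 5 downward (0.0655%), 1 of them Lyz2, which both rules used, and the difference for Spp1 was 0.99 (adjusted p = 0.900 by edgeR).

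Against C1q macrophages (124 and 110 cells in the PD-L1 KO libraries, 88 and 57 in the WT libraries), 1 of 7029 genes differed upward (0.0142%) and 0 downward (0%). It was Spp1, by 5.22 (SE 0.64, edgeR adjusted p = 0.0476). In those macrophages Spp1 stood at 338 and 1660 CPM in the PD-L1 KO libraries, against 1576 and 1036 in the WT libraries, while the members had 151 and 265 CPM in the PD-L1 KO libraries, against 15.7 and 0 in the WT libraries. At an unadjusted p under 0.05 there were 302 genes. With likely doublets left out, which removed cells of the macrophage class only, the difference was 5.25 and did not pass (edgeR adjusted p = 0.0566).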

How the data were processed

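Single-cell libraries of lung leukocytes (10x Genomics 3' kit, version 3) had been processed with Cell Ranger 3.1.0 and STAR on mm10, as listed in the submitters' processing notes. No source used here gives the annotation release. The matrices deposited by the authors hold raw UMI counts per gene and barcode, per the file headers. The kit reads 3' ends, so isoforms are not told apart, and counting intervals and floors cover counting error only.

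From these counts, member UMIs were summed per library, because cells are not replicates. After filterByExpr and TMM scaling the sums were tested with edgeR 4.0.16's quasi-likelihood test in R 4.3.3, group as the single factor, Benjamini-Hochberg adjusted over all tested genes at 0.05. DESeq2 1.42.0 was an alternative. CPM scales the summed count to the UMI total of the members in the library. Log2 differences are PD-L1 KO minus WT, by the sample labels. The procedure was tested on simulated sums of fixed dispersion, without cells of extreme counts. That test does not cover genes whose UMIs lie in few cells. Scrublet (scanpy 1.11.5) marked the highest doublet scores at 0.8% per 1000 barcodes, and these were kept in the main sums. Endothelial cells were barcodes with at least 3 UMIs of Cldn5 and none of Ptprc.

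The members and gene lists were chosen with earlier results of these data known. Genes were named by rank of p in each direction, at most 10 where few passed, and up to 4 per list. The ranking in each direction passed over symbols starting with Gm and a digit, Rpl, Rps or mt-, or ending in Rik. Marker lists of other cell types are given as sums. Ccl5, Cxcl9, Cxcl10 and the genes of the MHC class II split were named after their values were seen. Coordinates are from GENCODE vM21. The alternatives were other normalization, filters, membership rules, depth, doublet and replicate settings.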

Additional observations from a re-analysis of the deposited data

Results flagged for a closer look

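The libraries' difference between PD-L1 KO and WT was not the same in the classical monocytes and in the neighbouring classes for a few genes, by the interaction test (edgeR's quasi-likelihood test, adjusted p under 0.05). Spp1 differed by 7.94 from the cells with Treml4, Ace or Adgre4, where it stood at 5.74 and 62.3 CPM in the PD-L1 KO libraries, against 516 and 2.57 in the WT libraries, so WT library 1 alone was high. That class held endothelial cells, and against its cells with Lyz2 the Spp1 difference was 0.99 and did not pass (edgeR adjusted p = 0.900). Spp1 differed by 5.22 from C1q macrophages, a call lost without likely doublets (edgeR adjusted p = 0.0566). In the MHC class II-low members of PD-L1 KO library 2, 1 cell held 110 of the 122 Spp1 UMIs.

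Ccl5 differed by -2.07 from the cells with Treml4, Ace or Adgre4 and by -2.30 from those that also had Lyz2. In the class with Lyz2 it stood at 372 and 365 CPM in the PD-L1 KO libraries, against 145 and 109 in the WT libraries. In the members of WT library 2, 1 cell held 240 of the 241 Ccl5 UMIs. Single cells also held much of it in the members of PD-L1 KO library 1 and WT library 1, as given above. Against the class with Lyz2, Tnfaip2 differed by -1.27. Lyz2 had a value of -0.61, but both membership rules used it, so this is no independent result. Ctla2a differed by -2.44, with 273 of 286 UMIs of WT library 1 in 1 member. Hba-a1, a haemoglobin chain, differed by -10.20 and stood at 869 CPM in the class with Lyz2 of PD-L1 KO library 1 and at 0 in that of library 2, against 41.7 and 7.27 in the WT libraries. With RLE size factors Tnfaip2, Ctla2a and Lyz2 no longer passed (edgeR adjusted p = 0.103, 0.107 and 0.0935), and without likely doublets Ccl5 did not pass either (adjusted p = 0.0873), which left Hba-a1 as the 1 call. In the members Hba-a1 stood at 0 CPM in both PD-L1 KO libraries, against 19.2 and 0 in the WT libraries. Its fitted difference was 1.12 without PD-L1 KO library 1 and -6.12 without WT library 1, both poorly determined.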

How the results depend on the processing

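Counts of called genes were unstable. Against 2 in the member sums, there were 121 without a filter on low counts, 21 without members holding UMIs of other lineages, 1 with at most 5% mitochondrial UMIs, 1 under the stricter membership rule, 0 after thinning to 3000 UMIs, 5 by DESeq2, and 0 to 123 leaving out each library. Settings chosen after the data had been seen gave 0 for MHC class II-low members alone, 19 without members holding 20 or more Cxcl9 UMIs, and 2 without members holding platelet UMIs. With the replicate number as a block there were 26 calls (20 higher, 6 lower). The deviations of libraries with the same number had a correlation of -0.0676 over 5651 genes, with 2 pairs, so the numbers are not shown to pair the libraries. The interaction with the Treml4, Ace or Adgre4 cells, 2 calls, gave 34 without a filter, 1 without doublets, 5 with Lyz2 required (added later) and 1 to 125 leaving out each library. That with C1q macrophages, 1 call, gave 2 with RLE size factors, 44 without a filter, 0 without doublets and 6 to 21. The share of members kept its direction in all settings, with differences of 0.442 to 1.75 points. The per-cell interferon difference was -5.25 with at most 5% mitochondrial UMIs, against 2.5.

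Of 1276 values of 82 genes under alternatives, 27 turned round, none of them of a called gene, and the cause was not tested. The setting without doublets left the member sums as they were, because no member was marked, so its values could not turn round. Log2 differences leaving out each library ran from -1.21 to 0.95 for Cd80, -0.43 to 1.06 for Cxcl10, -0.58 to 2.09 for Cxcl9, -0.0418 to 0.0496 for Hmgb2, -0.0851 to 0.85 for Il1b, -0.11 to 0.0661 for Ms4a6c and -1.68 to 0.49 for Thbs1. Over MHC class II-low members they were 0.19 for Cd80, 0.0160 for Ms4a6c and 0.12 for Thbs1. Without members of other lineages' UMIs they were -0.98 for Cxcl9, -0.13 for Hmgb2 and -0.28 for S100a8. Under the stricter rule they were -0.14 for Hmgb2, 0.0545 for Ms4a6c, -0.21 for S100a8 and -0.0935 for S100a9. Thinned, Ms4a6c stood at 0.0111 and Thbs1 at 0.0013, and Cd86 stood at -0.0174 with at most 5% mitochondrial UMIs. Without members rich in Cxcl9, Hmgb2 stood at -0.0279.

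Leaving out 1 library moved the log2 difference of 50 of the 82 genes by over 1.5 times in at least 1 case. With 53 to 86 members a library, a gene carried by few cells can be set by 1 of them.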
